A study of Mus musculus with 24 samples.

Results

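In hippocampal vesicles, 6 mature miRNAs were described for the reads in which an adenosine was read as guanosine (A-to-G reads). They are listed as mmu-mir-381-3p, mmu-mir-421-3p, mmu-mir-130a-3p, mmu-mir-137-3p, mmu-mir-222-3p and mmu-mir-377-3p (below miR-381-3p and so on) and are 6 of 1073 miRNA names counted in the 24 libraries. They were chosen by their counts of A-to-G reads in these same libraries, which were low but above 0, so the levels over all libraries are given as a description and without a test. The members held 22 of the 397 A-to-G positions listed in any miRNA, and the 9 of these positions with at least 10 A-to-G reads are described, of 90 such sites in all miRNAs.

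Adenosine deaminases acting on RNA (ADAR enzymes) convert adenosine to inosine in double-stranded RNA such as the hairpins from which miRNAs are cut, and sequencing reads inosine as guanosine. In the brain such editing is common in several miRNA hairpins. A change within the seed, the stretch near the 5′ end by which a miRNA pairs with its targets, can alter the set of targets, whereas a change further along has less effect on pairing. An A-to-G read can also come from a sequencing error or from a read of a similar miRNA, and the reads alone do not tell these apart.

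Exosome-enriched fractions (EEFs) were prepared from the hippocampus of male C57BL/6 mice of 6 to 9 weeks, by ultracentrifugation (UC) or with a precipitation solution (kit). The mice had received 0.3 µg of kainic acid (KA) in 0.2 µl, or PBS (control), into the basolateral amygdala, and according to the protocol were given midazolam at 8 mg/kg after 40 min. KA injected there evokes status epilepticus. EEFs were taken after 24 h or 2 weeks, which with both methods and both treatments gave 8 groups of 3 libraries. Each library came from the pooled hippocampi of several mice, so its spread is that between pools, and EEFs from whole tissue hold vesicles of all its cell types. Libraries held 85436 to 169639 miRNA reads with UC and 154884 to 676726 with the kit, so that counting error is smaller with the kit.

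The mature sequences show which adenosines could be changed, and the seed (bases 2 to 8) is in capitals. They are from RefSeq (GRCm38.p6), in which 5 of the 6 members matched a mature entry. For miR-421-3p the hairpin is given.
miR-381-3p: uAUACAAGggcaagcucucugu
miR-130a-3p: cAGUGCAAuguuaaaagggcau
miR-137-3p: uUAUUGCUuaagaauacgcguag
miR-222-3p: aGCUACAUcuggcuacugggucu
miR-377-3p: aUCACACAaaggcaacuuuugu
miR-421 hairpin: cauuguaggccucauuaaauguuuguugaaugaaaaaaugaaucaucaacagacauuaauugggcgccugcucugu

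The changed forms with at least 10 A-to-G reads follow for these 5 miRNAs, with the changed base in capitals. In each token the reference base comes first and positions count from 1 at the 5′ end of the mature miRNA.
miR-381-3p A7G: uauacaGgggcaagcucucugu
miR-130a-3p A8G: cagugcaGuguuaaaagggcau
miR-130a-3p A15G: cagugcaauguuaaGagggcau
miR-130a-3p A16G: cagugcaauguuaaaGgggcau
miR-137-3p A16G: uuauugcuuaagaauGcgcguag
miR-222-3p A15G: agcuacaucuggcuGcugggucu
miR-377-3p A10G: aucacacaaGggcaacuuuugu

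All listed positions of these 5 miRNAs fell on an adenosine of the mature sequence, namely 4 in miR-381-3p, 5 in miR-130a-3p, 4 in miR-137-3p, 3 in miR-222-3p and 2 in miR-377-3p. Since only A-to-G changes were counted, this is a check of the numbering and not a result. Of the forms shown, miR-381-3p A7G and miR-130a-3p A8G lie in the seed, and position 7 of miR-421-3p falls among the same bases. Other positions of bases 2 to 8 had 1 to 3 A-to-G reads each, in miR-381-3p, miR-222-3p, miR-130a-3p and miR-421-3p. The adenosine was followed by guanosine in miR-381-3p A7G, miR-130a-3p A16G and miR-377-3p A10G, and preceded by uridine in miR-137-3p A16G and miR-222-3p A15G. Positions 1 to 4 held only 8 of the 397 listed sites of all miRNAs, with 17 of 37920 A-to-G reads, so adenosines there cannot be read as unchanged.

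The hairpin of miR-381 lies at chr12:109726822-109726896 on the plus strand, and that of miR-377 at chr12:109740510-109740577 on the plus strand, in an exon of the long noncoding RNA Mirg. The miR-421 hairpin lies at chrX:103572921-103572996 on the minus strand, in an intron of the long noncoding RNA Ftx. The miR-137 hairpin lies at chr3:118433857-118433929 on the plus strand, in an exon of Gm26871. The hairpins of miR-130a and miR-222 lie on the minus strand at chr2:84741115-84741178 and chrX:19146893-19146971. These coordinates are on GRCm38.p6 and the genes are those of GENCODE M21.

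miR-421-3p carried the highest level. At position 14, 147 of 1661 reads over all libraries were A-to-G reads, which is 8.85% (95% exact Clopper-Pearson interval 7.53 to 10.3). Intervals cover counting error only, since reads without molecular identifiers are not independent molecules. Position 10 of miR-377-3p followed with 24 of 539 reads, or 4.45% (2.87 to 6.55). Position 7 of miR-381-3p had 150 of 6878 reads, or 2.18% (1.85 to 2.55).

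The other sites lay below 1% of reads. Position 16 of miR-137-3p had 12 of 1428 reads (0.840%), and position 15 of miR-222-3p had 41 of 9715 reads (0.422%). In miR-130a-3p 3 positions were described, position 8 with 72 of 10464 reads (0.688%), position 16 with 52 (0.497%) and position 15 with 35 (0.334%). Position 7 of miR-421-3p, a minor site beside position 14, had 11 of 1661 reads (0.662%). The last member site above the minimum was thus miR-421-3p position 7 with 11 A-to-G reads, and the first one under it was miR-130a-3p position 14 with 7.

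A single position held most A-to-G reads of 4 members. Its share was 96.0% in miR-377-3p, 93.8% in miR-381-3p, 93.2% in miR-222-3p and 91.9% in miR-421-3p. It was 60.0% in miR-137-3p and 43.1% in miR-130a-3p, where the changed reads were spread over several adenosines.

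**Figure D1:**
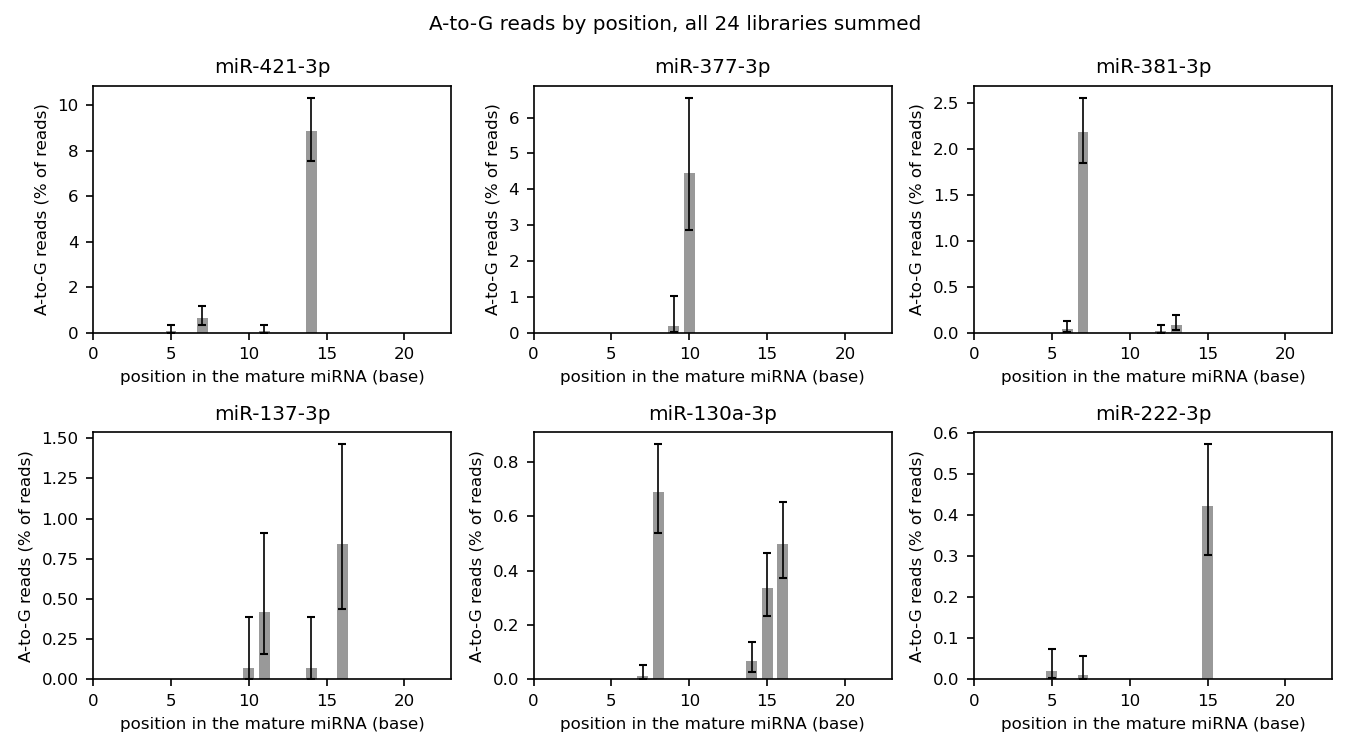
Share of reads that were A-to-G reads (y axis, percent of the reads of the miRNA in all 24 libraries) at each listed position of the mature miRNA (x axis, base), with bars for the level and lines for the exact 95% interval; the y axes differ. miR-421-3p, miR-377-3p, miR-381-3p and miR-222-3p each show 1 leading position, and miR-130a-3p shows 3.

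Read against other miRNAs of like abundance, the members stood in the upper part of the range. Among 142 miRNAs with 500 to 11000 reads, the median share of reads with any listed A-to-G change was 0.0352%. The members ranked 4th (miR-421-3p), 5th (miR-377-3p), 7th (miR-381-3p), 8th (miR-130a-3p), 9th (miR-137-3p) and 18th (miR-222-3p) of them. A list of 13 miRNAs known as substrates of editing was read in the same way, at the position with the most A-to-G reads. In 6 of them this level was 16.3 to 86.4%, as for miR-376b-3p position 6 with 77.5%, and in the other 7 it was 0 to 0.574%. The leading levels of the members (0.422 to 8.85%) lay below those 6, and in 5 members above those 7. In both statements the levels are those that chose the members. The paper on these libraries reported editing of miR-376b-3p, miR-411-5p, miR-3099-3p and miR-378a, so the list is not independent of them. It also reported miR-381-3p position 7 and miR-421-3p position 14 as edited sites, although the list leaves these members out.

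The treatment comparison asked whether the level of a site differed between EEFs of KA and control mice. miR-421-3p position 14 was the only member site that passed an unadjusted p of 0.05 in it, and it did so through the UC libraries. In the UC controls there were 0 of 7, 2 of 23 and 1 of 10 A-to-G reads at 24 h and 2 of 13, 1 of 17 and 1 of 8 at 2 weeks. After KA, the UC libraries had 0 of 15, 0 of 11 and 0 of 4 at 24 h and 0 of 26, 0 of 18 and 0 of 24 at 2 weeks. A-to-G reads were thus found in 5 of 6 control libraries and in none of the 6 KA libraries with UC. Summed, this was 7 of 78 reads in the controls, or 8.97% (3.68 to 17.6), and 0 of 98 after KA. Read as up to 3 counts, the 0 allows a level of up to 3.06%. This limit is lower than that of an exact interval, so it cannot be set against the interval of the controls.

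The kit libraries held more miR-421-3p reads (1485, against 176 with UC) and showed no such gap. Control libraries had 6 of 87, 2 of 44 and 14 of 88 A-to-G reads at 24 h (6.90, 4.55 and 15.9%) and 7 of 109, 11 of 137 and 7 of 72 at 2 weeks (6.42, 8.03 and 9.72%). KA libraries had 11 of 145, 20 of 160 and 8 of 97 at 24 h (7.59, 12.5 and 8.25%) and 4 of 72, 44 of 390 and 6 of 84 at 2 weeks (5.56, 11.3 and 7.14%). The values of both treatments overlapped at both times. Summed, the level was 8.75% (6.50 to 11.5) in the kit controls and 9.81% (7.99 to 11.9) after KA.

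Over both methods and times the level differed by -4.93 percentage points between KA and control (two-sided exact permutation test within method and time, p = 0.0264, adjusted p = 0.722 over 82 sites, libraries with at least 10 reads, n = 11 and 10). No site of the 82 passed adjustment (0.0%), and 3 passed unadjusted (3.66%). With labels exchanged only between libraries of the same replicate number, p was 0.160 in the exact permutation test. Without replicate 2 of each group the difference was -7.65 points, and without replicate 3 it was -3.45. At 2 weeks alone it was -5.35 points (exact permutation test, p = 0.05, and 0.25 with the replicate numbers as pairs). In UC libraries alone the difference was -9.99 points (exact permutation test, p = 0.0167, the smallest the 9 libraries with enough reads allow, adjusted p = 1.00), and in kit libraries alone 0.13 points (p = 0.935, exact permutation test). With at least 50 reads per library, which UC libraries did not reach, it was -1.01 points. The effect of KA differed between kit and UC by 10.1 points (exact permutation test, p = 0.0107, adjusted p = 0.873), in a test of the 82 sites of which 2 passed unadjusted (2.44%) and none with adjustment (0.0%).

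**Figure D2:**
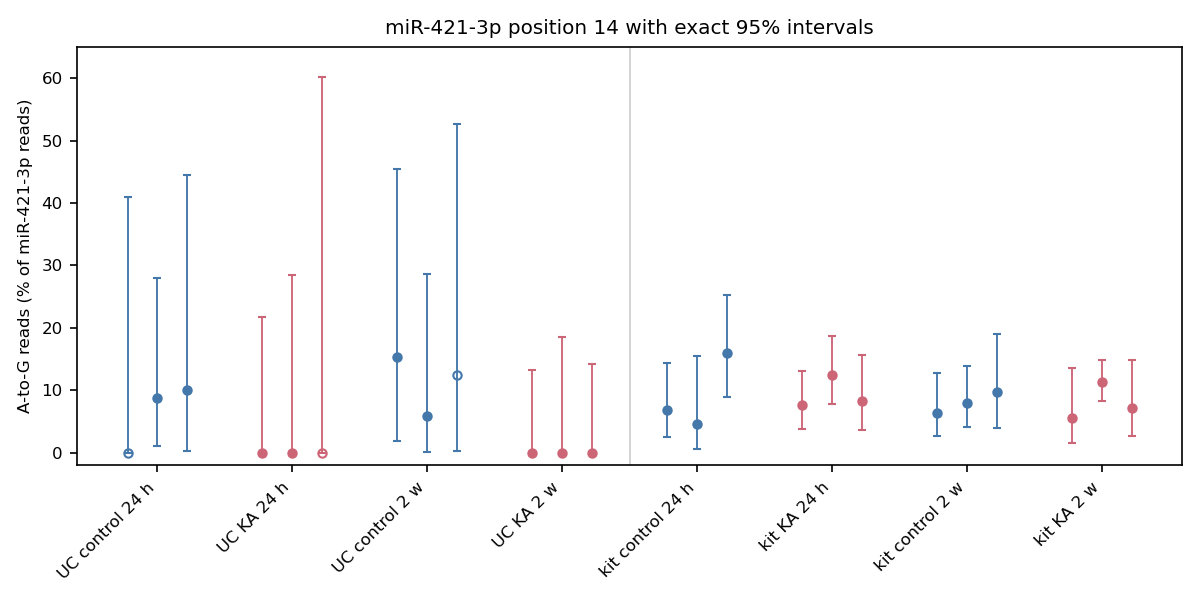
A-to-G reads at position 14 of miR-421-3p (y axis, percent of miR-421-3p reads) in each library of the 8 groups (x axis; blue control, red KA), with exact 95% intervals and open circles for libraries under 10 reads. The UC libraries of KA mice lie at 0 with intervals that reach above 10%, and the kit libraries of both treatments lie between 4.55 and 15.9%.

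miR-381-3p position 7, a seed position, did not pass in any comparison. In the UC controls the levels were 0, 5.71 and 0% at 24 h and 0, 2.22 and 0% at 2 weeks, and after KA 2.17, 0 and 3.33% and 4.11, 2.78 and 3.23%. In the kit controls they were 2.58, 2.94 and 1.79% at 24 h and 4.17, 1.52 and 1.97% at 2 weeks, and after KA 1.88, 2.35 and 2.18% and 1.94, 2.04 and 1.34%. At 2 weeks the UC libraries of KA mice lay above all UC controls, with 1 to 3 A-to-G reads each, whereas with the kit KA and control overlapped. The difference over both methods and times was 0.372 points (exact permutation test, p = 0.572, adjusted p = 0.946). It was -0.537 points in the kit libraries alone and thus of the opposite sign.

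The sites of miR-130a-3p and miR-222-3p did not pass the test for KA. The difference at miR-130a-3p position 8 was -0.106 points (p = 0.525), at position 15 -0.111 points (p = 0.482) and at position 16 0.0146 points (p = 0.911), each in an exact permutation test. At miR-222-3p position 15 it was 0.0528 points (p = 0.845, exact permutation test), with levels of 0 to 2.14% in UC and 0 to 0.833% in kit libraries. None of these passed at 24 h or at 2 weeks alone either, where no site of the 82 (0.0%) and 1 site (1.22%) passed unadjusted.

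miR-137-3p position 16 and miR-377-3p position 10 could be compared in kit libraries only, since a comparison asked for at least 2 libraries with 10 reads in every group. For miR-137-3p 10 of 12 UC libraries had as many reads, but only 1 of the UC controls at 24 h. For miR-377-3p the UC libraries held 1 to 10 reads each, 77 in all, of which 4 were A-to-G reads. The kit levels of miR-377-3p were 1.39, 0 and 9.52% in controls and 1.14, 1.61 and 11.1% after KA at 24 h, and 6.38, 3.57 and 11.8% and 2.94, 6.98 and 15% at 2 weeks. They differed by 1.02 points with KA (p = 0.675) and by 3.64 points with time (p = 0.240, both exact permutation tests), which is within the spread of the libraries. In every kit group replicate 3 had the highest level, at 17 to 21 reads of miR-377-3p. These tests did not take the replicate number into account, and the source of this pattern was not tested. For miR-137-3p, 7 of its 11 kit A-to-G reads came from the 2-week controls, 5 of them from 1 library, and KA and control differed by -0.796 points (p = 0.400, exact permutation test).

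**Figure D3:**
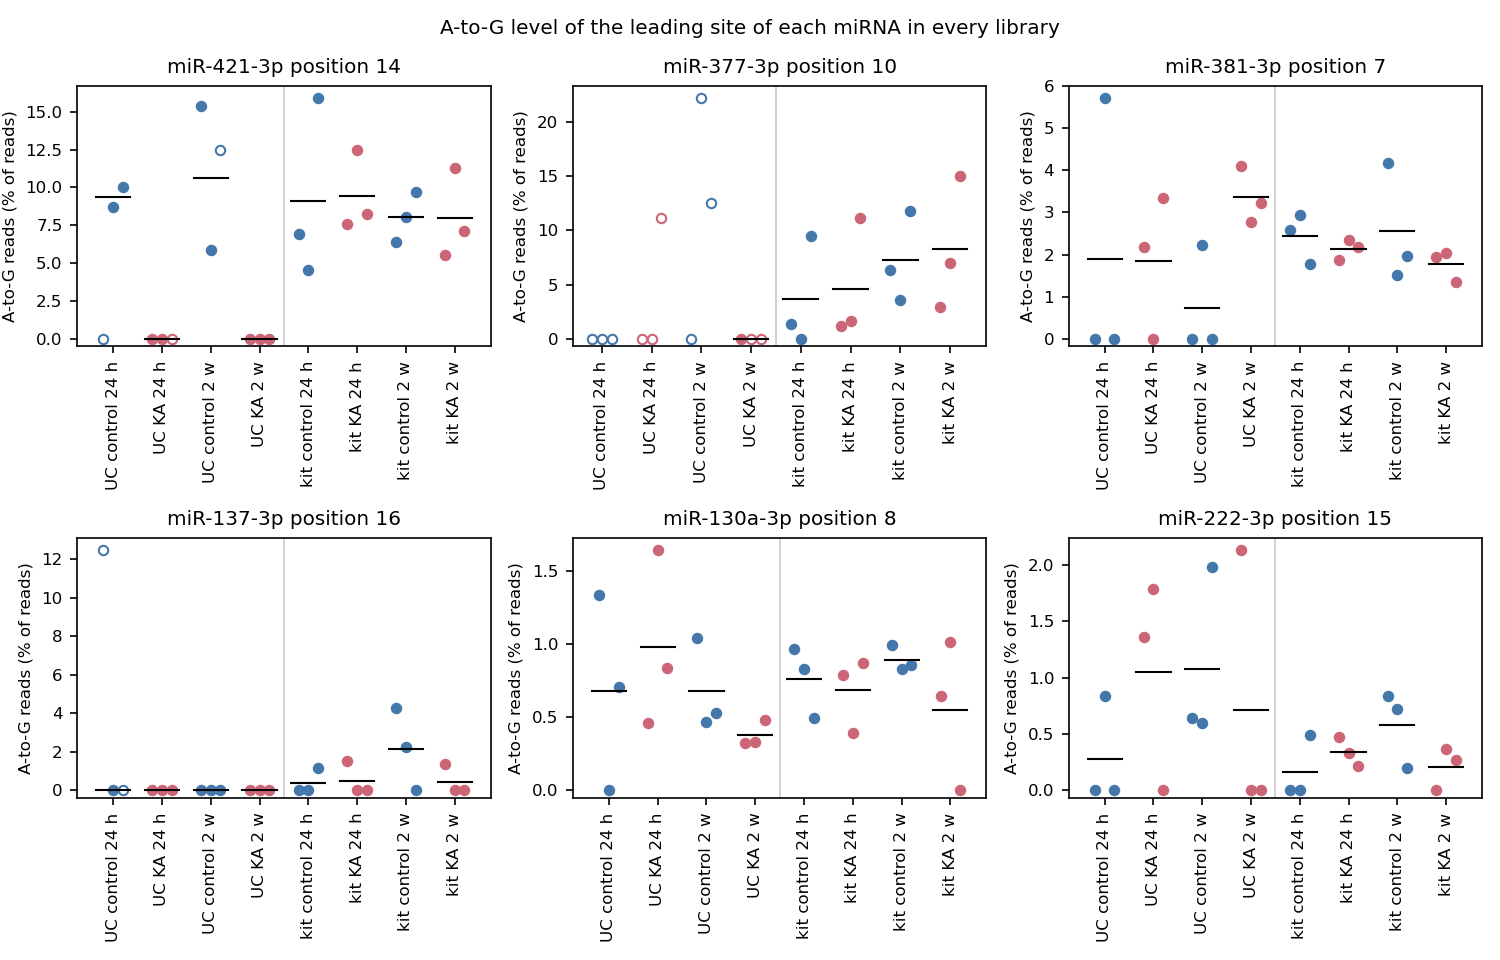
A-to-G level (y axis, percent of the reads of the miRNA) at the leading site of each of the 6 miRNAs in every library by group (x axis; blue control, red KA, open circles for libraries under 10 reads), with a line at the mean of the libraries with at least 10 reads; the y axes differ. The UC libraries, left of the grey line, scatter more than the kit libraries at miR-381-3p position 7, from 0 to 5.71% against 1.34 to 4.17%.

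Between the methods, 6 of the 82 sites passed adjustment (7.32%) and 22 passed unadjusted (26.8%), and no member site was among the former. miR-421-3p position 7 came nearest, with 0 of 176 reads in UC and 11 of 1485 in kit libraries, which is 0.741%. Read as up to 3 counts, the 0 in UC allows up to 1.70%. The difference of 0.764 points (exact permutation test, p = 0.00980, adjusted p = 0.0631) did not pass adjustment, and the kit level lies under the limit of the UC reads, so that a lower level with UC was not detectable at this depth. For miR-421-3p position 14 the difference was 3.66 points (p = 0.0749), for miR-222-3p position 15 -0.455 points (p = 0.0864) and for miR-381-3p position 7 0.262 points (p = 0.687), all in exact permutation tests. Between 2 weeks and 24 h no site passed adjustment (0.0%) and 4 passed unadjusted (4.88%). Among them was miR-421-3p position 7 with 0.468 points (exact permutation test, p = 0.0400, adjusted p = 0.769). That value averages the kit libraries with the UC libraries, which all had a level of 0 there. In kit libraries alone the difference was 0.936 points (exact permutation test, p = 0.0400).

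The ends of the changed reads were compared with those of the other reads of the same miRNA, as a description. Of the 35 A15G reads of miR-130a-3p, 25 (71.4%) ended in the pattern AC at the listed offset of -2, against an altered end in 5.26% of the other reads. Only 26 reads of miR-130a-3p had this end, and 25 of them carried A15G, in 2 UC and 9 kit libraries. Without them the level at position 15 was 0.0956% instead of 0.334%. Such reads were absent at positions 8 and 16, where 9.72 and 1.92% of A-to-G reads had an altered end. The source of the reads that end in AC was not tested.

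In miR-421-3p an added U at the 3′ end was found in 50 of 147 A14G reads (34.0%, 26.4 to 42.3) and in 440 of the 1514 other reads (29.1%, 26.8 to 31.4). The 11 A-to-G reads at position 7 had no altered end (0%, 0 to 28.5), against 35.3% of the other reads (33.0 to 37.7). In miR-137-3p, 7 of 12 A16G reads (58.3%) had an added C at the 3′ end, against 198 or 14.0% of the other reads, while the share with any altered end was 58.3 and 53.3%. The share of altered ends was 2.00 and 3.09% in miR-381-3p, 9.76 and 10.0% in miR-222-3p, and 4.17 and 9.71% in miR-377-3p, where 1 of 24 A10G reads had one.

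Similar miRNAs were looked at since a read can be assigned to a relative. The nearest other mature miRNA to miR-381-3p was miR-300-3p, which differs from it at 1 of the first 18 bases, and A4G in miR-381-3p would give these 18 bases of miR-300-3p. No A-to-G read was listed at that position, which cannot show how reads were assigned. Such a read would match miR-300-3p over these bases, and positions 1 to 4 held few listed reads in any miRNA. The form A7G differs from miR-300-3p at 2 bases. miR-300-3p itself had 41 A-to-G reads at position 7 of 4653 (0.881%). How reads that match both were assigned was not tested.

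The seed of miR-130a-3p, AGUGCAA, is shared with 6 other mature miRNAs, of which miR-301a-3p (2105 reads), miR-130b-3p (306) and miR-6389 (7) had reads. The changed seed AGUGCAG was found in no other mature miRNA of the table, and neither was AUACAGG, the changed seed of miR-381-3p. miR-301a-3p had 1 A-to-G read at any position and miR-130b-3p had 0. The opposite arms of the 6 hairpins held 3 to 101 reads each and no A-to-G read.

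Abundance was compared as CPM (read counts scaled to the library size) with edgeR's quasi-likelihood test. In bulk EEFs, fewer vesicles of a cell type and less of a miRNA per vesicle cannot be told apart. The method made the clearest difference, and 5 of the 6 members were higher with the kit, where 33.2% of 397 miRNAs tested were called higher and 66.2% in either direction (69.5% without adjustment). The A-to-G reads that chose the members came mostly from kit libraries. At the leading sites this ranged from 28 of 41 at miR-222-3p position 15 to 140 of 147 at miR-421-3p position 14. The choice may thus favour miRNAs with more kit reads, and the count of members is a description. miR-381-3p ranged from 162 to 454 CPM with UC (median 260) and from 998 to 3278 with the kit (median 1342), so that the ranges did not overlap. miR-421-3p had 45.2 to 176 CPM with UC (median 108) and 258 to 622 with the kit (median 336), again without overlap. How many of the 397 miRNAs had ranges without overlap was not determined, so this is not a trait particular to these members.

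The log2 difference between kit and UC was 2.39 (SE 0.19, edgeR adjusted p = 2.7e-13) for miR-381-3p and 1.68 (SE 0.19, edgeR adjusted p = 1.54e-09) for miR-421-3p. For miR-377-3p, which had 10.4 to 102 CPM with UC and 68.5 to 238 with the kit, it was 1.22 (SE 0.29, edgeR adjusted p = 0.000364). Without replicate 1 of each group this fell to 0.65 with an edgeR adjusted p of 0.0555. miR-137-3p (0.91, SE 0.19) and miR-222-3p (0.83, SE 0.15) were also higher with the kit, with overlapping ranges. miR-130a-3p had means of 1820 and 1993 CPM and a difference of 0.13 (SE 0.20, edgeR adjusted p = 0.569). The median over all 397 miRNAs was -0.02.

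**Figure D4:**
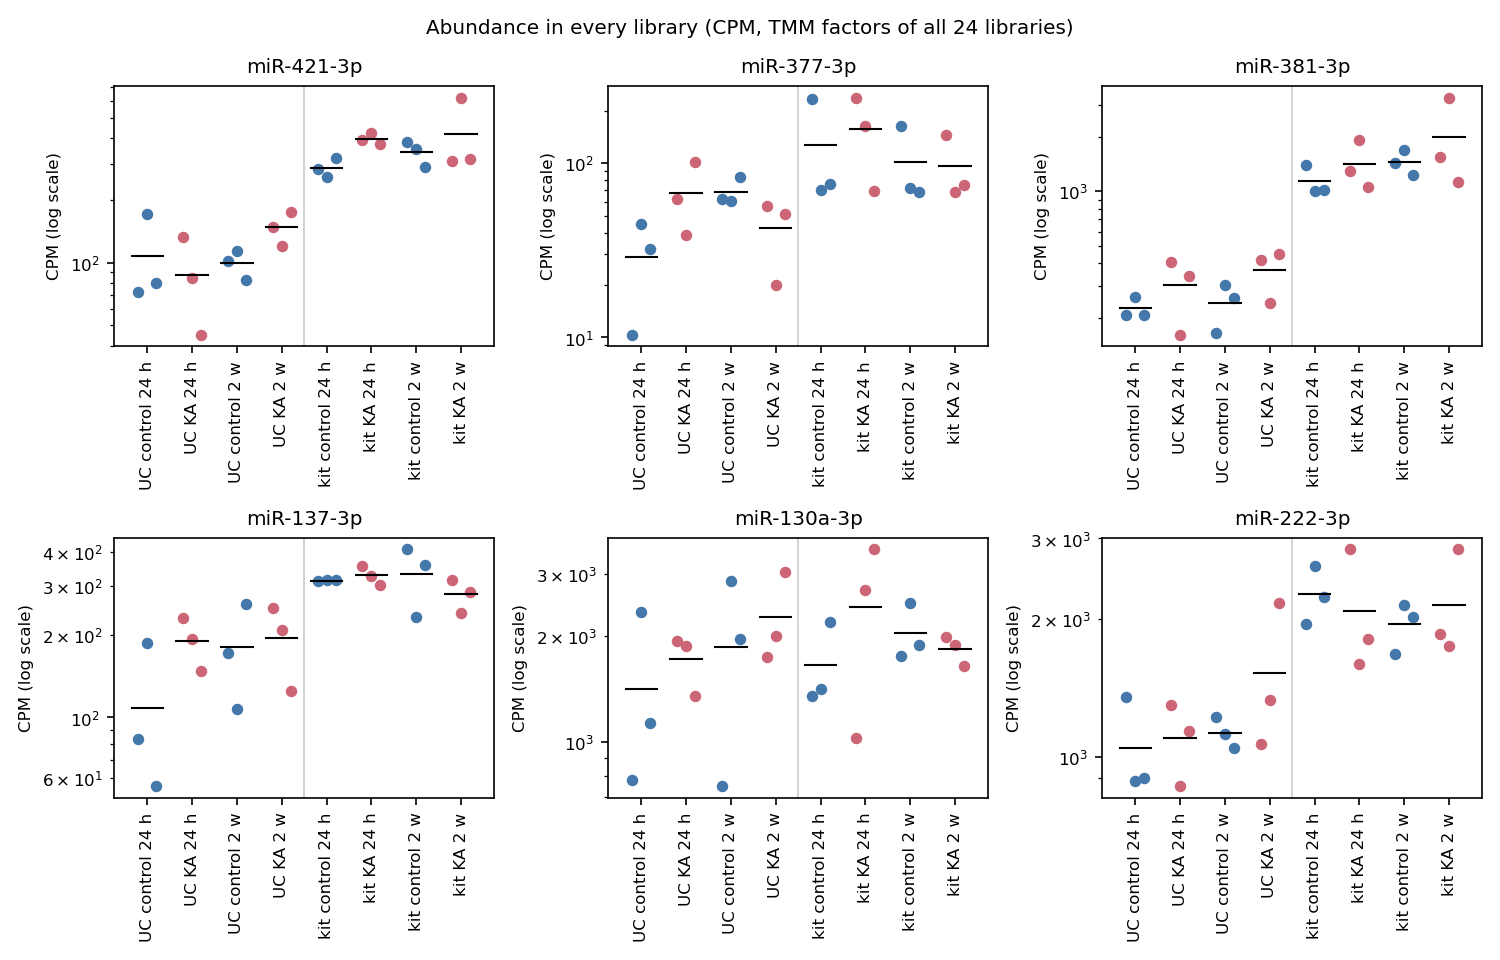
Abundance (y axis, CPM on a log scale) of the 6 miRNAs in each library by group (x axis; blue control, red KA), with a line at the mean of each group. The kit libraries, right of the grey line, lie above all UC libraries for miR-381-3p and miR-421-3p, and the methods overlap for miR-130a-3p.

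No member passed the test for a change of abundance with KA. At 24 h, 2.86% of miRNAs with UC and 4.62% with the kit passed an unadjusted p of 0.05, and at 2 weeks 7.86 and 2.69%, and no member was among them in any of these edgeR fits. With adjustment 0.476% passed with UC at 24 h, 0.952% with UC at 2 weeks and 0.0% with the kit at either time. For the kit at 2 weeks, a replicate block raised the number past adjustment from 0 to 2, and no member was among them. The values of the members were between -0.65 and 1.08 in log2, the highest for miR-377-3p with UC at 24 h (SE 0.65). There the controls had 10.1, 43.7 and 31.9 CPM and the KA libraries 61.2, 37.7 and 101 CPM. These CPM and those that follow are scaled within the method, as in the fits for KA. For miR-381-3p in the kit at 2 weeks, controls had 1562, 1778 and 1265 CPM and KA libraries 1499, 3528 and 1092 CPM. The log2 difference of 0.41 (SE 0.37) was -0.15 without the second KA library. For miR-421-3p the difference of 0.24 (SE 0.34) became -0.16. That library also gave 2056 of the 6878 reads of miR-381-3p and 390 of the 1661 reads of miR-421-3p.

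No member passed a test of whether the effect of KA differed between times or methods (edgeR interaction, lowest for miR-377-3p between times with UC, log2 difference -1.73, SE 0.87, adjusted p = 0.753). Of all miRNAs, 6.9% passed unadjusted between times with UC (0.476% adjusted) and 3.27% with the kit, and between methods 2.27% at 24 h and 3.53% at 2 weeks, with 0.0% adjusted in these last 3. Between 2 weeks and 24 h, 11.2% of miRNAs with UC and 5.19% with the kit passed unadjusted (0.476 and 0.0% adjusted) and no member did. Over the 24 libraries, with the mean of each method removed, the miRNA most like each member in log2 CPM among 188 candidates was miR-15a-5p for miR-130a-3p (Pearson r = 0.82), miR-29c-3p for miR-381-3p (0.73), miR-30c-5p for miR-222-3p (0.68), miR-138-5p for miR-377-3p (0.68), miR-25-3p for miR-421-3p (0.67) and miR-26b-5p for miR-137-3p (0.67). The libraries share their depth and scaling factors, and these values are a description.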

How the data were processed

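Reads of the EEF libraries had been assigned to miRNA hairpins by the authors with Chimira. Deposited were raw counts for each miRNA in each library, and counts for each modification pattern, in which A-to-G changes carry their position. In 11992 of 11992 pairs of miRNA and library both tables had equal totals when entries marked as doubled were left out.

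Members and lists were chosen with earlier results of these data known. The text names the 6 members, their positions with at least 10 A-to-G reads, relatives by seed or opposite arm, a list of known substrates, and for each member the miRNA most like it in abundance. Levels are A-to-G reads over reads of the miRNA, and summed levels take in the reads of every library. The comparisons used the levels of single libraries with at least 10 reads. A difference is that of their unweighted means, averaged equally over the method, time or treatment within which it was taken. Levels were compared by two-sided exact permutation tests within method, time or treatment, adjusted over 82 sites by Benjamini-Hochberg. With 3 libraries against 3, p cannot go below 0.1. Tests of abundance used edgeR 4.0.16 in R 4.3.3 (CPM over 1 in at least 6 libraries, TMM factors), and limma 3.58.1 and DESeq2 1.42.0 were alternatives. The SE of a log2 difference was derived from the edgeR test, as its absolute value divided by the square root of the test's F value. Python 3.11.15 with scipy 1.17.1 gave the permutation tests, and both kinds of test were first tested on simulated data. A count of 0 was read as up to 3 counts. Replicate numbers in the labels were checked as pairs by the correlation of deviations from group means. At 24 h these were -0.25 to 0.11 and the numbers were not taken as pairs. At 2 weeks they were 0.11 to 0.31. Libraries of different numbers had -0.21 to 0.038 at 2 weeks, below every value of the same number. The numbers thus went with shared deviations at 2 weeks, but the labels do not name pairs. Whether the numbers pair the libraries is therefore not known, and p values at 2 weeks without pairs are to be read with this in mind. The tests given are without pairs, and those with the replicate number as a block are alternatives. A comparison of single sites with the sequencing error was left out, since it uses the counts that chose the members.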

Additional observations from a re-analysis of the deposited data

Results flagged for a closer look

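The effect of KA on the level of miR-421-3p position 14 differed between the methods by 10.1 percentage points, from -9.99 with UC to 0.13 with the kit (exact permutation of the method labels within treatment and time, p = 0.0107, adjusted p = 0.873 over 82 sites, of which 2 or 2.44% passed unadjusted). The test was chosen after seeing the data. The UC value rests on 6 A-to-G reads in 63 reads of 4 control libraries and 0 in 94 reads of 5 KA libraries, at 10 to 26 reads per library, and the part of depth in it was not tested.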

How the results depend on the processing

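UC libraries held few reads of the members, and no UC library reached 50 reads of miR-421-3p, so its sites have no kit to UC value at that minimum. For KA against control over both times, the difference in level changed sign to 0.13 points for miR-421-3p position 14 in kit libraries only, to -0.537 for miR-381-3p position 7 in kit libraries only and with at least 50 reads, to -0.0985 for miR-222-3p position 15 and -0.0170 for miR-130a-3p position 16 in kit libraries only, and with summed reads to 0.0643 for miR-130a-3p position 8 and -0.0360 for position 16. With 1 replicate number left out, it ranged from -7.65 to -3.45 for miR-421-3p position 14, from -0.172 to -0.0370 for miR-130a-3p position 15, from -0.234 to 1.21 for miR-381-3p, from -0.316 to 0.107 for miR-130a-3p position 8, from -0.0931 to 0.104 for position 16 and from -0.233 to 0.353 for miR-222-3p. Between kit and UC, miR-381-3p position 7 gave -1.89 with at least 50 reads, -0.0538 with summed reads and -0.142 to 0.625 with a replicate left out. The count of sites past adjustment between kit and UC was 6, 10 with summed reads and 0 to 6 with a replicate left out, and it stayed at 0 for KA and for time. With at least 50 reads, the KA difference of miR-381-3p position 7 rested on the same kit libraries as in kit libraries only. Its kit to UC value of -1.89 rested on the KA groups at 2 weeks, with UC replicates 1 and 3 alone (73 and 62 reads). The cause of the other changes was not tested.

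For abundance, counts of miRNAs past adjustment changed as follows. For KA with UC at 24 h it was 4 with the replicate block instead of 2. For KA with UC at 2 weeks it was 4, and 1 with limma-voom or no filter, 0 with library size only, 2 with at least 10 counts in 6 libraries, and 0 to 5 with a library left out. For KA with the kit at 2 weeks it was 0, and 1 with DESeq2, RLE factors or library size only, 2 with no filter or the replicate block, and 0 to 2 with a library left out. For 2 weeks against 24 h with UC it was 2, and 1 with limma-voom, RLE factors or library size only, 5 with no filter, 7 with the replicate block, and 1 to 6 with a library left out, and with the kit it was 0, and 1 with no filter or the replicate block and 0 to 1 with a library left out. For kit against UC it was 263, and 163 with at least 10 counts in 6 libraries, where fewer miRNAs were tested, and 212 to 230 with a replicate left out. For KA with UC at 24 h it was 2 to 3 with a library left out.

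Of the 36 log2 differences of the members with KA or time, 15 changed sign under at least 1 alternative, 5 passed unadjusted under at least 1, and none passed adjustment under any. The same shares over all miRNAs were not determined, so these counts do not set the members apart. With a replicate left out, the kit to UC difference of miR-130a-3p ranged from -0.056 to 0.32, and with a library left out the KA difference with the kit at 2 weeks ranged from -0.15 to 0.70 for miR-381-3p and from -0.16 to 0.44 for miR-421-3p. The replicate block changed no adjusted call of a member.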
